A study of Rattus norvegicus with 8 samples.

Results

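Within the RNA-seq counts of peritoneal macrophages, 10 genes of the S100 and annexin families were described, namely S100a4, S100a6, S100a8, S100a9, S100a10, S100a11, Anxa1, Anxa2, Anxa4 and Anxa5. They were found by symbol among the 23487 genes of the deposited table, and each symbol matched 1 row. The list itself was chosen with earlier results of these data known. The macrophages came from Wistar rats, 8 weeks old, that had received an intraperitoneal injection of 2 mg of multi-walled carbon nanotubes. In 4 rats these were MWCNT-XNRI-7 (CNT-7), needle-like and mesotheliomagenic, and in the other 4 rats they were tangled and non-mesotheliomagenic (CNT-T). All 8 rats were sacrificed 15 days after injection, and macrophages were sorted by flow cytometry as cells high in CD11b/c and dim in His48, a gate set apart from those of neutrophils and monocytes. Both groups carried particles, untreated rats were not analysed here, and every difference is therefore one between CNT-7 and CNT-T. The labels number the rats 3, 5, 10 and 11 after CNT-7 and 1, 2, 12 and 13 after CNT-T, and each rat gave 1 library.

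S100 proteins are small calcium-binding proteins that change shape when calcium rises and then bind other proteins inside the cell. Some are also released and act on neighbouring cells as alarm signals, S100a8 and S100a9 being the best known, which pair to form calprotectin. Annexins bind membrane phospholipids in the presence of calcium and take part in membrane repair, vesicle traffic and the resolution of inflammation. Both families meet in defined pairs, as S100a10 binds annexin A2 and S100a11 binds annexin A1. S100a8 and S100a9 are abundant in neutrophils and young monocytes and decline as monocytes become macrophages.

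The total lay between 27195157 and 33732981 counts per rat, so that 3 counts, the smallest level taken as detectable, stood for 0.0887 to 0.109 CPM (counts scaled to a library of 1000000 after TMM normalization). Of 7 macrophage markers all 7 were tested, and Csf1r, the receptor of macrophage colony-stimulating factor, stood at 1220.0 ± 68.2 CPM in CNT-7 and at 1531 ± 143 CPM in CNT-T rats (SD, n = 4 each). Among these 7 markers, 1 was higher and 3 were lower in CNT-7. Cd14 was the one that was higher (log2 fold change 0.46). Csf1r, Cd68 and Adgre1 were lower, Adgre1 the most (log2 fold change -1.13, edgeR adjusted p = 0.00040). The 7 markers summed to 14987.5 to 22105.6 CPM in CNT-7 and 23396.2 to 33565.1 CPM in CNT-T rats, without overlap. Lyz2, which was not called, made at least 81.4% of this sum in every rat. T-cell markers had a summed level of 0.579 to 4.32 CPM in CNT-7 and of 0.0716 to 0.494 CPM in CNT-T rats, without overlap, and those of B cells, eosinophils, mast cells and mesothelial cells each summed to at most 9.33 CPM in any rat. The highest T-cell and B-cell marker sums were those of CNT-7 rat 5, and the highest eosinophil sum was that of CNT-7 rat 3. Fold changes were tested across all genes with edgeR's quasi-likelihood test and called at an adjusted p-value under 0.10.

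Of the 10 S100 and annexin genes, all 10 passed the filter on low counts, 3 rose and 1 fell in CNT-7 relative to CNT-T. The 3 that rose were annexin genes, Anxa1, Anxa4 and Anxa5, by 1.26-fold to 1.43-fold, and the one that fell was S100a8, to 0.363 of its CNT-T level. The other 6, which were Anxa2 and the 5 remaining S100 genes, did not pass the threshold. Of all 12124 genes tested, 27.9% were called, 13.9% higher and 14% lower, beside 4 of the 10 genes here. The median log2 fold change of the 10 genes was 0.30, and that of all genes tested was 0.0083. Together the 10 genes took between 0.820% and 0.884% of all counts after CNT-7 and between 0.625% and 0.845% after CNT-T, with overlap. In sorted cells a smaller number of cells of one type and less RNA per cell cannot be told apart. With both CNT-7 rats 3 and 5 left out, a setting chosen after the data were seen, Anxa4 and Anxa5 remained called higher and S100a8 lower, whereas Anxa1 had a log2 fold change of 0.30, against 0.33 with all 8 rats, and an adjusted p = 0.11 (edgeR's quasi-likelihood test), with 1690 genes called in all.

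**Figure D1:**
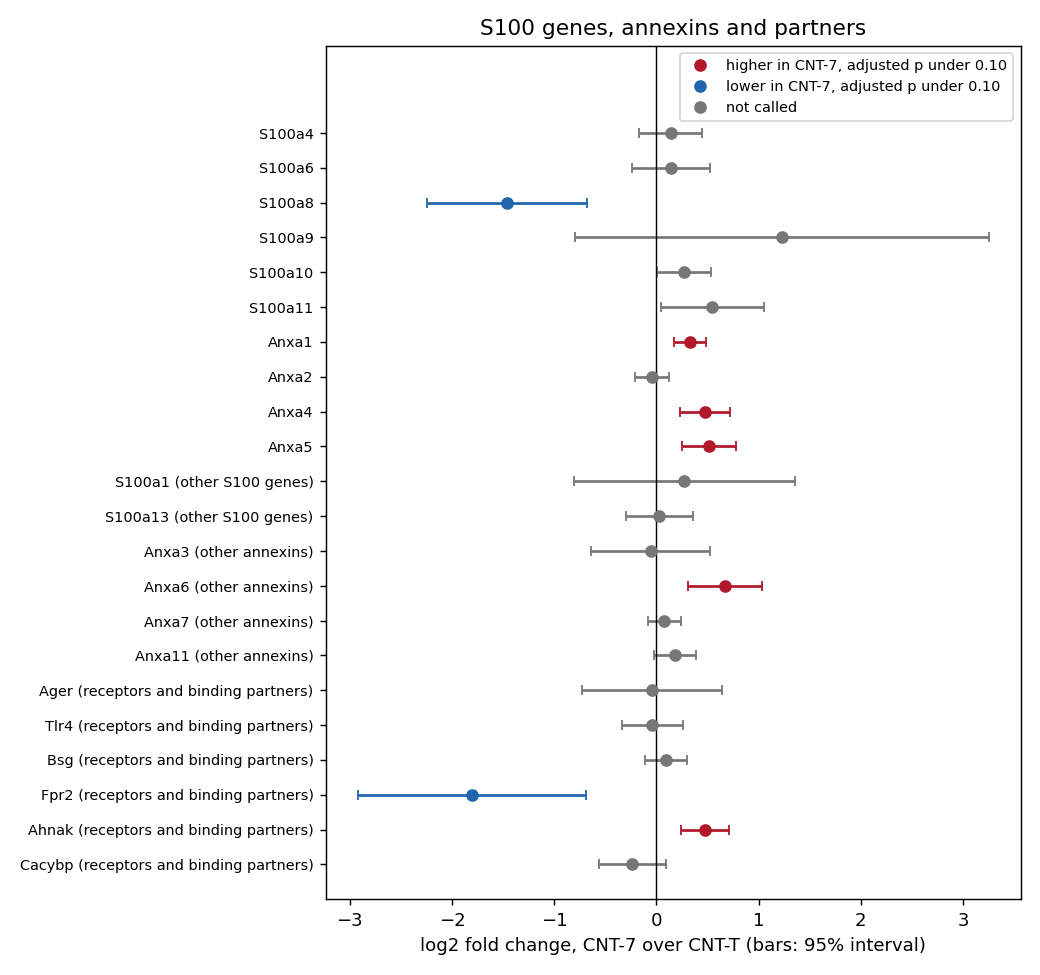
Log2 fold changes of CNT-7 over CNT-T for the 10 S100 and annexin genes and for the tested genes of the other S100, annexin and partner lists, with 95% intervals from the edgeR fit on 4 rats per group. Anxa1, Anxa4, Anxa5, Anxa6 and Ahnak lie to the right of 0 and S100a8 and Fpr2 to the left, each with an adjusted p-value under 0.10.

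Anxa1 (ENSRNOG00000017469) encodes annexin A1, a glucocorticoid-induced protein that limits leukocyte recruitment. It had 924, 967, 977 and 860.0 CPM in CNT-7 rats 3, 5, 10 and 11 and 744, 715, 738 and 772 CPM in CNT-T rats 1, 2, 12 and 13. The lowest CNT-7 rat exceeded the highest CNT-T rat. Groups were apart in this sense, in either direction, for 24.9% of all genes tested. The log2 fold change was 0.33 ± 0.071 (SE, edgeR adjusted p = 0.010), a 1.26-fold rise. Of the 10 genes, Anxa1 varied least between CNT-T rats, with a coefficient of variation of 3.15%.

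Anxa4 (ENSRNOG00000018159) encodes annexin A4, which binds phospholipid membranes and is known from secretory epithelia. Its levels were 358, 371, 430.3 and 418 CPM in CNT-7 rats 3, 5, 10 and 11 and 239, 315, 267 and 313 CPM in CNT-T rats 1, 2, 12 and 13. The groups did not overlap, and CNT-T rat 1 was the lowest of the 8. The log2 fold change was 0.48 ± 0.11 (SE, edgeR adjusted p = 0.012).

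Anxa5 (ENSRNOG00000014453) encodes annexin A5, which binds exposed phosphatidylserine and is used to stain dying cells. CNT-7 rats 3, 5, 10 and 11 had 611, 534, 561 and 654 CPM, and CNT-T rats 1, 2, 12 and 13 had 325, 451, 431 and 444 CPM. Again the groups did not overlap, and CNT-T rat 1 stood below its group. The log2 fold change of 0.52 ± 0.12 (SE, edgeR adjusted p = 0.012) stood above the values of Anxa1 and Anxa4, a difference not tested, and without CNT-T rat 1 it was 0.42. The T-cell marker sums given above were also higher in every CNT-7 rat, at no more than 4.32 CPM, and their part in the rises of Anxa1, Anxa4 and Anxa5 was not tested.

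Anxa2 (ENSRNOG00000010362) encodes annexin A2, the membrane-bound partner of S100a10 and a cofactor of plasmin formation at the cell surface. It had 2183, 2275, 2115 and 2225 CPM in CNT-7 rats 3, 5, 10 and 11 and 2157, 2418, 2160.0 and 2327 CPM in CNT-T rats 1, 2, 12 and 13. The groups overlapped, and the log2 fold change was -0.043 (95% interval from -0.21 to 0.13, edgeR adjusted p = 0.74). A rise as large as the 0.33 of Anxa1 lies outside this interval. Coefficients of variation of Anxa2 were 3.08% after CNT-7 and 5.69% after CNT-T.

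**Figure D2:**
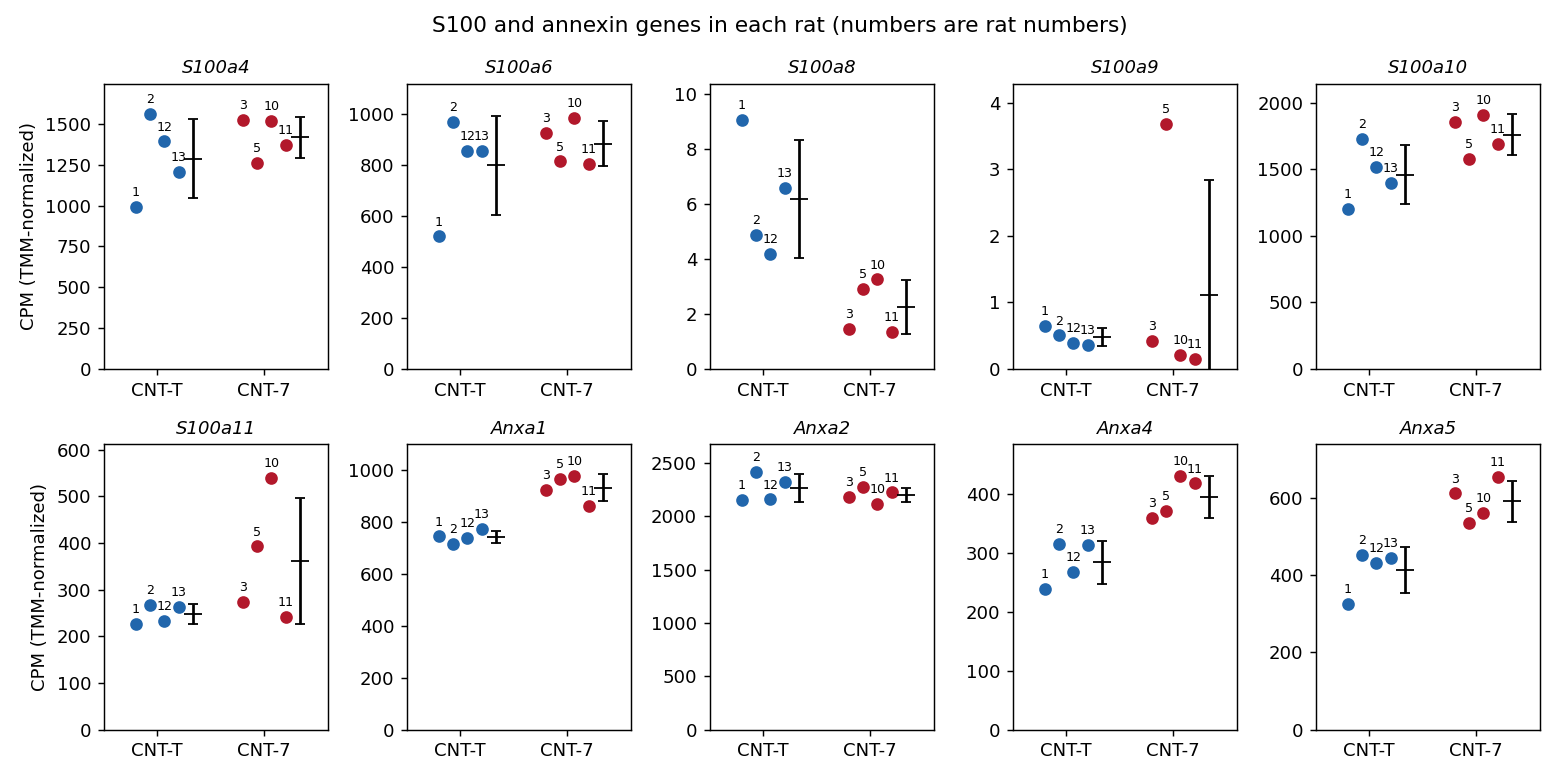
TMM-normalized CPM of the 10 genes in each of the 8 rats, with the mean and SD of each group beside the points and the rat number above each. CNT-7 rats lie above all CNT-T rats for Anxa1, Anxa4 and Anxa5 and below them for S100a8, and the CNT-7 mean of S100a9 rests on rat 5 (3.69 CPM), where the mean minus 1 SD falls below 0.

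The sequences upstream of the annexin genes were compared because 3 of the 4 listed rose while Anxa2 did not. The RefSeq promoter table of assembly GRCr8 matched 8 of the 10 genes, without S100a8 and S100a10, and the 250 bases before the annotated start of each were searched on both strands for 5 short motifs. These were the TATA box with the letters TATAAA, the GC box, searched as GGGCGG, the CCAAT box under its own letters, the AP-1 site in the form TGACTCA, and an NF-kappaB site of 10 bases, which is the run of capitals farthest upstream in the Anxa4 sequence. The motifs were chosen after the windows had been seen, the NF-kappaB site because it stood in that of Anxa4. Capitals mark every match in the sequences, which run 5′ to 3′ on the strand of the gene. Anxa1 (chr1:227303733-227303982, minus strand) held 1 TATA box, Anxa4 (chr4:120798514-120798763, minus strand) held 1 GC box, 1 CCAAT box read on the opposite strand and 1 NF-kappaB match, and Anxa5 (chr2:121272697-121272946, minus strand) held 1 GC box. Anxa2 (chr8:78986002-78986251, plus strand) held 1 TATA box, 2 GC boxes and 1 AP-1 match on the opposite strand.
Anxa1: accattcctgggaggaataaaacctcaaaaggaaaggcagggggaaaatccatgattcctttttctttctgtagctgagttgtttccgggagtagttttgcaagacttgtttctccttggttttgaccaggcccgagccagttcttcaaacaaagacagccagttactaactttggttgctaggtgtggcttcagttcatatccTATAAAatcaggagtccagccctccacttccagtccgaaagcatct
Anxa4: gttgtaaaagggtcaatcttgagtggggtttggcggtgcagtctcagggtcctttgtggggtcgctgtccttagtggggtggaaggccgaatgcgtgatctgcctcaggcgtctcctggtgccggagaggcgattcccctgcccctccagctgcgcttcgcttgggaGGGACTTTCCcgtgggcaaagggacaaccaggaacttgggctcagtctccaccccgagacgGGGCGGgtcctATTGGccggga
Anxa5: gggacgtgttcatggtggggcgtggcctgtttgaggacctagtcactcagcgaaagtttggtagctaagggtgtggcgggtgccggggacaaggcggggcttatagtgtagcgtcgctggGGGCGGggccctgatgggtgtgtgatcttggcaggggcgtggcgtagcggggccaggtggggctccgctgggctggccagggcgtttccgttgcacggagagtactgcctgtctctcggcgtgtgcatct
Anxa2: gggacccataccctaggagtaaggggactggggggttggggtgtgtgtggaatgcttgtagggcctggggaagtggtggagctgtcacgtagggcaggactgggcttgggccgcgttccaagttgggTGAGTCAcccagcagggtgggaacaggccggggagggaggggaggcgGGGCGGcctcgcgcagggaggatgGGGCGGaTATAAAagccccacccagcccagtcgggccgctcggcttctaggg
Of 27457 windows of the same length in the table, the TATA box was found in 13.1%, the GC box in 32.4%, the CCAAT box in 34.3%, the AP-1 site in 3.98% and the NF-kappaB site in 0.0765%. None of the 5 motifs was common to Anxa1, Anxa4 and Anxa5. The GC content was 45.2% for Anxa1, 62.4% for Anxa4, 65.2% for Anxa5 and 67.2% for Anxa2, against a median of 52% over all windows. A match is a string of letters and not a measured binding site. The windows of Anxa1 and Anxa5 lie wholly or almost wholly inside the annotated RefSeq gene (250 and 239 of their bases).

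The other annexin genes of the family numbered 8. The filter on low counts kept 4 of these, with a median log2 fold change of 0.13, and 1 was called higher and none lower. Anxa6, the annexin with a doubled core, had 180.3, 204, 171 and 279 CPM in CNT-7 rats 3, 5, 10 and 11 and 107, 129, 149 and 139 CPM in CNT-T rats 1, 2, 12 and 13. The groups did not overlap, and the log2 fold change was 0.67 ± 0.16 (SE, edgeR adjusted p = 0.017). Anxa3, Anxa7 and Anxa11 had log2 fold changes of -0.058, 0.078 and 0.18, and none was called. Anxa3 varied widely within both groups, from 417 to 960.1 CPM after CNT-7 and from 443 to 886 CPM after CNT-T. Anxa8, Anxa9, Anxa10 and Anxa13 had between 0 and 3 counts in each rat, at or below the smallest detectable level.

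S100a10 (ENSRNOG00000023226) encodes p11, which holds annexin A2 in a heterotetramer and lacks calcium binding of its own. It had 1859.7, 1577, 1912 and 1689.9 CPM in CNT-7 rats 3, 5, 10 and 11 and 1199.7, 1727, 1518 and 1396 CPM in CNT-T rats 1, 2, 12 and 13. CNT-T rat 2 lay above 2 of the CNT-7 rats, and CNT-T rat 1 was the lowest. The log2 fold change was 0.27 ± 0.12 (SE, edgeR adjusted p = 0.15), short of the threshold. It passed without CNT-T rat 2 (0.36, adjusted p = 0.067 from the same edgeR test) and with DESeq2 (0.26, adjusted p = 0.095).

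S100a11 (ENSRNOG00000010105) encodes S100A11, which binds the amino-terminal end of annexin A1. CNT-7 rats 3, 5, 10 and 11 had 274, 393, 539.8 and 241 CPM, and CNT-T rats 1, 2, 12 and 13 had 227, 268, 232 and 263 CPM. CNT-7 rats 5 and 10 lay above all CNT-T rats, CNT-7 rat 3 just above them, and CNT-7 rat 11 among them. The coefficient of variation was 37.4% after CNT-7 and 8.49% after CNT-T. The log2 fold change was 0.55 ± 0.22 (SE, edgeR adjusted p = 0.12) and was 0.29 without CNT-7 rat 10. It passed the threshold without CNT-7 rat 3 (0.66, adjusted p = 0.084) or rat 11 (0.70, adjusted p = 0.033) by the same edgeR test, and with DESeq2 (0.54, adjusted p = 0.046). RefSeq names 7 further loci after S100a11 and 1 each after S100a10 and Anxa2, most of them pseudogenes, and whether the quantification divided reads with these copies was not tested.

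S100a4 (ENSRNOG00000011821), which binds non-muscle myosin and is linked to cell motility, overlapped between the groups. Its levels were 1524, 1263, 1516 and 1373 CPM in CNT-7 rats 3, 5, 10 and 11 and 992, 1559.8, 1393 and 1208 CPM in CNT-T rats 1, 2, 12 and 13. The log2 fold change was 0.14 (95% interval from -0.17 to 0.45, edgeR adjusted p = 0.52). It was 0.032 without CNT-T rat 1 and 0.24 without CNT-T rat 2, and was not called in either case.

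S100a6 (ENSRNOG00000011647) encodes calcyclin, first known from growing cells. CNT-7 rats 3, 5, 10 and 11 had 927, 815, 986 and 805 CPM, and CNT-T rats 1, 2, 12 and 13 had 520.1, 969.9, 856 and 854 CPM. CNT-T rat 1 alone lay far below the other 7 rats, and the log2 fold change was 0.14 (95% interval from -0.24 to 0.53, edgeR adjusted p = 0.62). Without CNT-T rat 1 it was -0.017, and without CNT-T rat 2 it was 0.25. That rat was the lowest of all 8 for 6 of the 10 genes, namely S100a4, S100a6, S100a10, S100a11, Anxa4 and Anxa5, and the highest for S100a8.

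In the GRCr8 gene order of RefSeq, S100a4, S100a5 and S100a6 follow each other with no other protein-coding gene between them, and so do S100a8 and S100a9. S100a5 had between 1 and 4 counts in each rat, at or near the smallest detectable level. Of 10 other S100 genes listed, 2 passed the filter, S100a1 (log2 fold change 0.27) and S100a13 (0.029). Neither was called by edgeR, and neither had an unadjusted p under 0.05 in that test. S100a14 was not analysed here. S100b, S100g and S100z had 0 counts in every rat, and S100a3, S100a5, S100a7a and S100a16 at most 5 counts in any rat.

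S100a8 (ENSRNOG00000011557), one chain of calprotectin, was low in all 8 rats. It had 44, 87, 90 and 37 counts in CNT-7 rats 3, 5, 10 and 11 and 277, 165, 127 and 184 counts in CNT-T rats 1, 2, 12 and 13, that is, 1.34 to 3.25 CPM against 4.19 to 9.03 CPM. The groups did not overlap, and the log2 fold change was -1.46 ± 0.35 (SE, edgeR adjusted p = 0.016).

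S100a9 (ENSRNOG00000011483), the other chain, had 13, 110, 6 and 4 counts in CNT-7 rats 3, 5, 10 and 11 and 20, 17, 12 and 10 counts in CNT-T rats 1, 2, 12 and 13. CNT-7 rat 5 held by far the highest count, and CNT-7 rats 10 and 11 the lowest. The log2 fold change was 1.23 ± 0.90 (SE, edgeR adjusted p = 0.39), and without CNT-7 rat 5 it was -0.84 (adjusted p = 0.27), so that its direction rested on that rat. CNT-7 rat 5 also held 11 counts of Mmp8, a neutrophil collagenase at 0 counts in the other 7 rats. Other neutrophil markers were mixed. Camp was also highest in CNT-7 rat 5 (11 counts), whereas Mmp9 was lowest there (18 counts). Retnlg and Cxcr2, with 20 and 27 counts in that rat, reached 1561 and 62 counts in CNT-7 rat 3. The part of neutrophils in the S100a9 count of CNT-7 rat 5 was not tested.

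Neutrophil markers were measured beside both genes. Of 10 markers, 5 were tested, none was higher and 1, Mmp9, was lower in CNT-7, with 0.603 to 1.05 CPM after CNT-7 and 3.75 to 21.5 CPM after CNT-T. Mmp9 was highest in CNT-T rat 1, as S100a8 was, and so was Csf3r (57.4 CPM). Other markers went the other way in CNT-T rat 1. Elane was the lowest of the CNT-T rats there (28 counts) and Camp the lowest of all 8 rats (1 count). Mpo, the defining enzyme of neutrophil granules, was listed at 0 in all 8 rats, and Ltf, Camp and Ngp had at most 11 counts. Elane, in contrast, had 15 to 43 counts per rat. Whether a listed 0 stands for absent transcript or for a limit of the quantification was not tested. Retnlg, a resistin-like gene of neutrophils, had 1561 counts in CNT-7 rat 3 and 2 to 56 in the others. Summed over the 10 markers, the level was 43.4 to 84.0 CPM in CNT-7 and 25.6 to 82.1 CPM in CNT-T rats, with overlap. Csf3r, on average the largest of the 10, made at least 34.6% of this sum in every rat. In CNT-7 rat 3 Retnlg alone stood at 51.3 CPM. Of 6 monocyte markers, 5 were tested, 1 was higher and 3 were lower in CNT-7. Fcnb, a ficolin, was the one that was higher (log2 fold change 2.95, edgeR adjusted p = 0.012), with 21 to 42 counts in CNT-7 and 0 to 11 counts in CNT-T rats. Among those that were lower, Plac8 had a log2 fold change of -0.65 and Ly6c one of -2.59, and Vcan, which was not called, had 0.26. The sum of the monocyte markers, 2618 to 3248 CPM in CNT-7, did not reach the 3554 to 3589.7 CPM of CNT-T rats. The part of either cell type in the fall of S100a8 was not tested.

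Partner genes were also compared within each rat, as a ratio of counts does not depend on library scaling. The log2 ratio of S100a10 over Anxa2 was -0.33 ± 0.17 in CNT-7 and -0.64 ± 0.18 in CNT-T rats (SD, n = 4 each). The difference of 0.32 did not pass the threshold of 0.05 (exact permutation test over 70 divisions of the rats, two-sided, p = 0.086, and 0.21 adjusted over the 3 ratios), and CNT-7 rat 5 lay below 2 of the CNT-T rats. S100a8 over S100a9 was 2.06 ± 1.81 after CNT-7 and 3.62 ± 0.41 after CNT-T (SD, n = 4 each), a difference of -1.56 (exact permutation test, two-sided, p = 0.14, adjusted p = 0.21). CNT-7 rat 5 was the only rat with fewer counts of S100a8 than of S100a9, and without it the difference was -0.76. S100a11 over Anxa1 differed by 0.15 (exact permutation test, two-sided, p = 0.63), less than the SD of 0.45 between the CNT-7 rats. The smallest p-value that 4 rats against 4 allow is 0.0286.

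**Figure D3:**
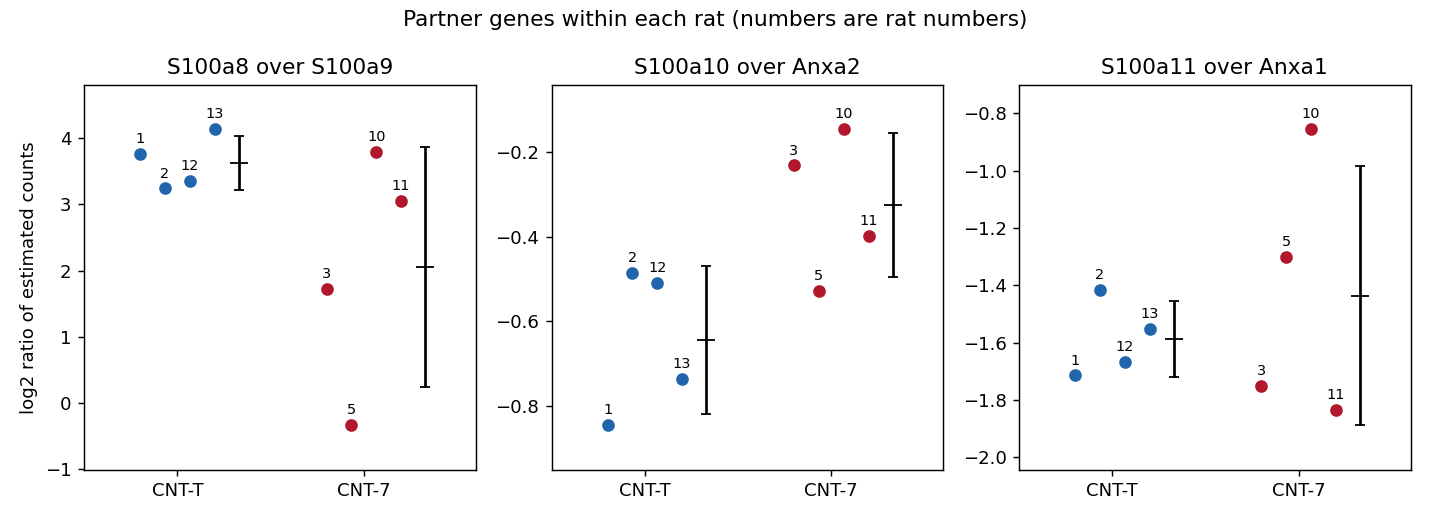
Log2 ratio of estimated counts of each pair of partner genes in each rat, with 0.5 added to both counts, and the mean and SD of each group beside the points. All 3 ratios overlap between CNT-T and CNT-7, and CNT-7 rat 5 is the lowest for S100a8 over S100a9 (-0.34).

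Among 11 receptors and binding partners of both families, 6 were tested, 1 was higher and 1 lower in CNT-7, and the median log2 fold change was -0.042. Ahnak, a very large scaffold protein held at the plasma membrane by the S100a10 and annexin A2 complex, had 1125, 1309, 1383 and 1235 CPM in CNT-7 rats 3, 5, 10 and 11 and 1077, 844, 881 and 827 CPM in CNT-T rats 1, 2, 12 and 13. Its groups did not overlap, with a log2 fold change of 0.48 ± 0.11 (SE, edgeR adjusted p = 0.011). Fpr2, the formyl peptide receptor to which annexin A1 binds, was near the limit of detection with 7, 7, 12 and 1 counts in CNT-7 rats 3, 5, 10 and 11 and 31, 26, 30 and 15 counts in CNT-T rats 1, 2, 12 and 13. It was lower in every CNT-7 rat (log2 fold change -1.81 ± 0.50, SE, with an edgeR adjusted p = 0.029). The calprotectin receptors Tlr4, Ager and Bsg had log2 fold changes of -0.039, -0.044 and 0.091, and Cacybp, which binds S100a6, one of -0.23, none of them called. Fpr1 and Dysf were listed at 0 in all rats, Fpr3 had at most 2 counts, and Myh9 was listed at 0 in 7 rats and at 34 counts in CNT-T rat 13. Cd36 was not analysed here.

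The genes most like 2 of the annexins across the 8 rats were found by the root-mean-square difference of log2 CPM after centring each gene on its mean, leaving out the 10 genes themselves and genes with placeholder names. For Anxa5, which had the largest fold change of the 4 called among the 10 genes when at least 10 CPM was required, they were B4galt4, Scarb1, Mpp3, Pla2g2a and Rhoc, at 0.075 to 0.10 on the log2 scale. Among these, Rhoc, a small GTPase of the actin cytoskeleton, had a log2 fold change of 0.60, and Scarb1, a lipoprotein scavenger receptor, one of 0.46. B4galt4, the nearest, had a mean of only 0.496 CPM and was not called (edgeR adjusted p = 0.21). For Anxa1, which had the highest mean CPM of these 4, they were Ppm1a, Dhrs7, Usp8, Rnf2 and Tmub2, at 0.033 to 0.050. Over all tested genes, placeholder names and the other members included, 312 lay within 0.1 of Anxa1 and 4 within 0.1 of Anxa5. The likeness to Anxa1 was therefore shared by many genes besides the 5 named. The patterns themselves had a root-mean-square size of 0.17 for Anxa1 and 0.31 for Anxa5. A limit of 0.1 was thus looser for Anxa1, and the counts of 312 and 4 cannot be compared directly.

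The calls of Anxa1, Anxa4, Anxa5 and S100a8 did not depend on a single rat. When the fit was repeated on 7 rats, omitting each once, the estimate stayed between 0.31 and 0.36 for Anxa1, between 0.40 and 0.53 for Anxa4, between 0.42 and 0.56 for Anxa5 and between -1.69 and -1.22 for S100a8, and all 4 passed the threshold in all 8 fits (highest adjusted p = 0.044, for Anxa4, edgeR's quasi-likelihood test). Between rats numbered 1 to 5 alone, the difference in mean log2 CPM was 0.37 for Anxa1, 0.41 for Anxa4, 0.58 for Anxa5 and -1.66 for S100a8. Between rats numbered 10 to 13 it was 0.28, 0.55, 0.47 and -1.30. Because the groups of these 4 genes did not overlap over all 8 rats, both ranges had to give the same direction.

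**Figure D4:**
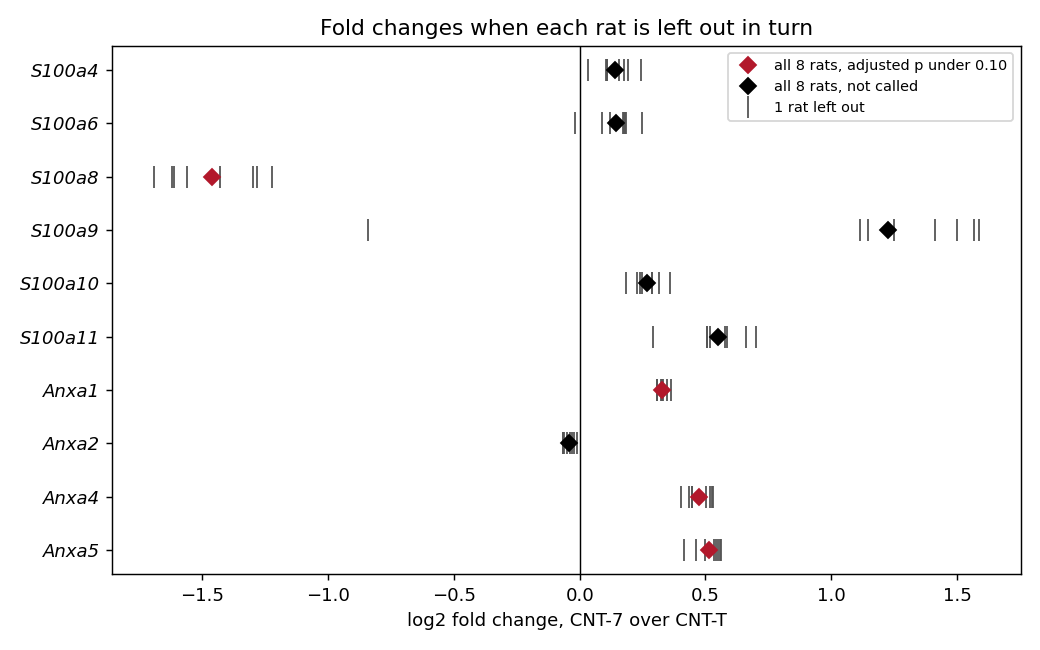
Log2 fold change (CNT-7 against CNT-T) of each of the 10 genes with all 8 rats (diamonds) and with 1 rat left out (vertical ticks). The ticks stay on one side of 0 except for S100a9 (-0.84 without CNT-7 rat 5) and S100a6 (-0.017 without CNT-T rat 1).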

How the data were processed

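The data were RNA-seq libraries of macrophages sorted from the peritoneum, 4 from CNT-7 and 4 from CNT-T rats, grouped by the sample labels. The authors quantified reads with Salmon against Ensembl cDNA sequences (Rnor_6.0), imported them with tximeta and deposited estimated counts per gene, already whole numbers and not normalized. The Salmon version is not given in the sources used here. All 8 columns of counts were used, and 0 were left out.

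Counts were normalized by TMM, filtered with filterByExpr (minimum count 10, minimum total 15) and tested by quasi-likelihood (edgeR 4.0.16, R 4.3.3), with Benjamini-Hochberg adjustment over 12124 genes and a threshold of 0.10, as the study did. The SE of a log2 fold change was derived from it and its F statistic. Log2 CPM used 2 added counts. CPM was not divided by transcript length, so CPM ranks genes by counts and not by transcript number, and it served to pick 1 member for the search for like genes. Partner ratios (0.5 added to both counts) were compared by an exact permutation test. The members and lists were chosen with earlier results of these data known. All 10 members are named, as is every tested gene of the other lists, and the 5 genes most like 2 members by a rule set without their values. Alternatives were DESeq2 1.42.0, upper-quartile normalization, other filters and thresholds, the range of rat numbers as a block and leaving out rats. The scripts were tested on simulated counts with 197 tested genes changed. At the threshold of 0.10, 7.24% of the genes called by edgeR and 25.6% of those called by DESeq2 were false. Of changes of 0.5 on the log2 scale, edgeR recovered 35.8% in these simulated counts. There 197 of 12169 tested genes were changed, whereas 27.9% of genes were called in the data. Adjusted p-values depend on the share of genes changed, so these simulated shares do not carry over to the data. How often small changes were missed in the data was not tested. The values of 1 marker gene are not reported here. No molecular identifiers were used, so the detection floor covers counting error alone. Gene names and upstream sequences came from RefSeq tables of GRCr8, and coordinates are on that assembly, not on Rnor_6.0.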

Additional observations from a re-analysis of the deposited data

Results flagged for a closer look

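The 22 tested genes of the S100, annexin and partner lists and the 3 ratios gave 50 groups of 4 rats. In 2 of them 1 rat was separated from its group (the gap to its neighbour, as a fraction of the group's whole range, exceeded Dixon's 95% limit), and 2.5 are expected by chance. For S100a9 this was CNT-7 rat 5, the highest at 3.69 CPM, with a fraction of 0.920, while the others of its group lay from 0.145 to 0.427 CPM. For Anxa5 it was CNT-T rat 1, the lowest at 325 CPM, with a fraction of 0.841, while the others lay from 431 to 451 CPM.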

How the results depend on the processing

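The number of genes called fell from 3383 to 1006 when at least a 2-fold change was required and to 1690 with both CNT-7 rats 3 and 5 left out, a setting chosen after the data were seen that also has fewer samples. The number of S100 and annexin genes called higher in CNT-7 was 3, and it was 5 with DESeq2, which added S100a10 and S100a11, and 0 with at least a 2-fold change. In the simulated counts DESeq2 had the larger share of false calls (25.6%, against 7.24% with edgeR). Those counts were drawn with dispersions estimated by edgeR and with far fewer genes changed than were called here. The simulated share therefore cannot decide whether the DESeq2 calls of S100a10 and S100a11 were false. The number called lower was 1 under every setting run. With each rat left out in turn, between 2578 and 3515 genes were called, 3 to 4 of the 10 genes were higher and 1 to 1 lower. The differences in log2 ratio then ranged from -2.14 to -0.76 for S100a8 over S100a9, from 0.25 to 0.39 for S100a10 over Anxa2 and from -0.042 to 0.28 for S100a11 over Anxa1, and the log2 fold change of S100a9 from -0.84 to 1.59. Log2 fold changes that changed direction were those of S100a9, -0.84 without CNT-7 rat 5 and -1.39 with both CNT-7 rats 3 and 5 left out, and of S100a6, -0.017 without CNT-T rat 1. S100a9 had under 10 counts in some rats and was not tested where 10 counts were required in every rat. The range of rat numbers as a block changed no call among the 10 genes. No paired analysis was possible because no rat number occurs in both groups. With 4 rats per group and a few counts per rat, levels such as those of S100a9 and Fpr2 are imprecise.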
